A study of Mus musculus with 20 samples.

Results

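Calcium extrusion exchangers and pumps were followed across the 4 groups of the study, in the form of the 10 genes Slc24a2, Slc24a3, Slc24a4, Slc24a5, Slc8a1, Slc8a2, Slc8a3, Atp2b1, Atp2b2 and Atp2b3. They were taken as all probe sets that carry 1 gene symbol and name 1 of these genes, which gave 11 probe sets of the 28767 on the array, where 21776 probe sets name 19933 single symbols. Slc8a1 has 2 probe sets and each other gene has 1. Slc24a2 was chosen by its values on these arrays, since the study lists it for WT stress against con and for stress KO against WT, and the other 9 genes were added as its family. Values of Slc24a2 in those comparisons, and in the interaction that contains them, are therefore given as a description without a test.

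Amygdala RNA of 20 male mice was hybridized, 1 mouse per array, in 4 groups of 5. KO stress and KO con mice lacked the serotonin transporter 5-HTT (gene Slc6a4), and WT stress and WT con mice carried the intact gene. All mice had a C57BL/6 background, came from heterozygous parents, were 7 months old at behavioural testing, lived singly before treatment and gave left and right amygdalae. Stress mice spent 1 min in water, which the labels put at 22 °C, whereas con mice spent 1 min in the home cage. Values are normalized log2 signals, in which a difference of 0.58 is a fold of 1.5. Tissue of this kind mixes cell types, so that fewer cells of a type and less RNA per cell cannot be told apart.

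The arrays showed the following general properties. The probe set of Slc6a4 read higher on each array labelled KO than on each array labelled WT (8.10 to 8.38 in KO stress and 8.11 to 8.20 in KO con, against 6.30 to 6.55 in WT stress and 5.82 to 7.82 in WT con). No source used here places its probes relative to the targeted sequence, so it does not check the direction of the labels, and KO and WT below mean the arrays labelled so. Pairs of arrays correlated at 0.948 to 0.996, and the arrays numbered 1 of WT stress and WT con had the lowest median correlations with the rest, 0.961 and 0.978, where each other array had 0.980 or more. Of 8 markers of amygdala nuclei all 8 were measured and 0 had a mean log2 value under 5. Every other marker list, pigment cells included, also had 0 measured markers under 5. This cut therefore does not show which tissues were present. Markers of neighbouring tissue were measured as well, and their scores (mean log2 value of a marker list, each gene centred over the 20 arrays) differed between mice of one group. The choroid plexus score ranged from -0.58 to 2.09 in KO stress, from -1.27 to 2.82 in WT stress, from -1.32 to -0.29 for KO con and from -0.96 to 0.18 for WT con.

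Neurons lower cytosolic calcium after activity by exporting it through the plasma membrane. The NCX exchangers (Slc8 genes) trade sodium for calcium, the NCKX exchangers (Slc24 genes) trade sodium for calcium together with potassium, and both draw on the sodium gradient. The PMCA pumps (Atp2b genes) use ATP and are activated by calmodulin, with high calcium affinity and lower capacity than the exchangers. NCKX2, the protein of Slc24a2, is known from neurons, where it takes part in calcium clearance at synapses.

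Promoter windows of Slc24a2 and Atp2b1 are printed because these were the members with the most distinct group values. RefSeq gives windows of 250 bases before to 50 bases after a transcription start for 9 of the 10 genes, 14 windows in all (build GRCm38.p6), and lists 2 starts each for Slc24a2 and Atp2b1. The windows were searched for TGACG on both strands, the core of the cAMP response element bound by CREB, a factor that acts in calcium-driven transcription. Capitals mark it, and it reads CGTCA where it lies on the other strand. Each sequence runs 5′ to 3′ along the gene.
Slc24a2, upstream start, chr4:87230491-87230790, minus strand: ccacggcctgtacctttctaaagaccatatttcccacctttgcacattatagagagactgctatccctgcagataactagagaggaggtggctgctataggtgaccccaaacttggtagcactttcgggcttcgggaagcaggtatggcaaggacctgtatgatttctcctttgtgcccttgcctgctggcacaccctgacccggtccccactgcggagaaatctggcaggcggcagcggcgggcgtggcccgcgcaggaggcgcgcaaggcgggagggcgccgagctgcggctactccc
Slc24a2, downstream start, chr4:87227914-87228213, minus strand: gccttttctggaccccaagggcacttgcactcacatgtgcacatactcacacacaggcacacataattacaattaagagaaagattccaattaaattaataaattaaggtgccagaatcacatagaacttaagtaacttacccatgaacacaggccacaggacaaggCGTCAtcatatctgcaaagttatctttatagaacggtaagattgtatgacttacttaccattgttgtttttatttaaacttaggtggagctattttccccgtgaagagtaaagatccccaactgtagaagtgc
Atp2b1, upstream start, chr10:98914392-98914691, plus strand: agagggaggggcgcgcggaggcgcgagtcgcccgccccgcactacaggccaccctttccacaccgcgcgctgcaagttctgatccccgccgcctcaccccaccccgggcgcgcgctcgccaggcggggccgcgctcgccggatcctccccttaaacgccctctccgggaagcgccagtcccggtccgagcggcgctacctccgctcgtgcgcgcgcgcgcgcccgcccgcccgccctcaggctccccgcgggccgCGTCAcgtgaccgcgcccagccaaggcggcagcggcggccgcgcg
The upstream window of Slc24a2 has a GC content of 60.0% and no TGACG on either strand. The downstream window has a GC content of 38.7% and the core at position -83 from the start. The upstream Atp2b1 window is GC-rich, at 79.3%, with the core at position 6, just after the start, and the second Atp2b1 window, with the same GC content, holds no core. Among the 14 member windows 3 held the core, 1 each of Slc24a2, Slc8a3 and Atp2b1, against 20.8% of all 32851 mouse windows of this length. The full element TGACGTCA, which contains the core, was in 0 of the 14 and in 1.79% of all windows. These are matches of letters and say nothing of binding.

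The mean of Slc24a2 was highest in WT stress, followed by KO con, and the means of WT con and KO stress lay lowest and within each other's spread. Its log2 values (probe set 10514240) were 9.63, 9.44, 9.84, 9.65 and 9.52 in KO stress and 9.86, 10.18, 10.24, 10.51 and 10.53 in WT stress. They were 10.51, 9.77, 10.04, 9.50 and 9.83 in KO con, against 9.80, 10.22, 9.34, 9.26 and 9.60 in WT con. All 5 KO stress arrays lay below all 5 WT stress arrays, whereas both con groups spread over most of the range and overlapped each other and the stress groups. Means were 9.62 ± 0.15 in KO stress, 10.26 ± 0.27 in WT stress, 9.93 ± 0.38 for KO con and 9.64 ± 0.38 for WT con (SD, n = 5 each).

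**Figure D1:**
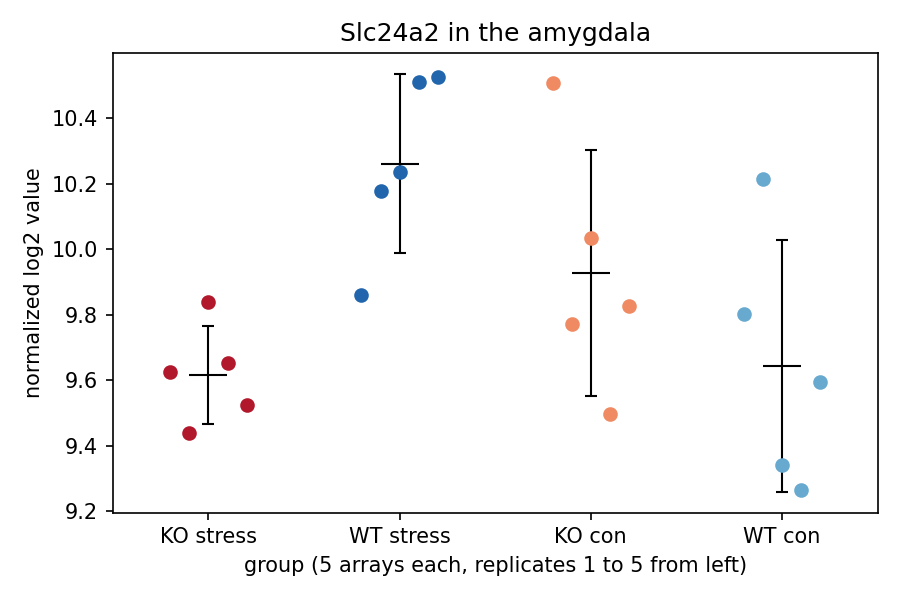
Normalized log2 value of Slc24a2 (y axis) in the 4 groups (x axis), with 1 point per array and bars for the mean ± SD of 5 arrays. The KO stress arrays end at 9.84, just below the lowest WT stress array at 9.86.

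As a description, Slc24a2 was higher in WT stress than in WT con by 0.62 (SE 0.19), a fold of 1.54, and lower in KO stress than in WT stress, at a difference of -0.65 (SE 0.19). Both lay just past the fold threshold of 0.58. The first fell short of it without WT stress replicate 4 or 5 or WT con replicate 3 or 4. It also did so with array medians centred, and with the pallial excitatory neuron score as a covariate (0.47). The second fell short without WT stress replicate 4 or 5 and with that covariate (-0.53). The remaining 2-group comparisons were not used to choose the gene, although they share the KO stress or WT con arrays with those that were. Their differences are therefore not independent of the choice, and their p-values are given as a description. In KO mice the difference of stress and con was -0.31 (SE 0.19, 95% interval -0.70 to 0.08), with a limma p of 0.112 and an exact permutation p of 0.127. In con mice KO differed from WT by 0.28 (SE 0.19, interval -0.11 to 0.68), with a limma p of 0.146 and an exact permutation p of 0.270. Single arrays moved both values. Without KO con replicate 4 the KO difference was -0.42, with an unadjusted limma p under 0.05, and without KO con replicate 1, the highest of its group, it was -0.17. Without WT con replicate 2 the con difference was 0.43, also with a p under 0.05, and without KO con replicate 1 it was 0.14. The interaction, the KO stress response minus the WT stress response, was -0.93 (SE 0.26), again as a description.

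Fgf13 and Kcnq3 were the genes whose values followed Slc24a2 most closely from mouse to mouse. Likeness was measured as Pearson's r over 20 arrays after subtracting group means, among 21770 probe sets with 1 symbol. The highest were Fgf13 (r = 0.91), an intracellular fibroblast growth factor that acts on sodium channels, Kcnq3 (0.88), a subunit of the M-current potassium channel, Slitrk3 (0.87), an adhesion protein of inhibitory synapses, Inpp5j (0.87), an inositol phosphatase, and Nr2f1 (0.86), a nuclear receptor. The lowest were Sox13 (-0.76), Fgf17 (-0.75) and Olfr356 (-0.73). Arrays share dissection and hybridization, so these values are a description. Within its family only Atp2b1 was near, at r = 0.55 and rank 274, followed by Slc8a2 at 0.31 and rank 2485, whereas Slc24a4 ran opposite at -0.53. The pairs of Slc24a2 with Atp2b1 and with Slc24a4 each had an adjusted p of 0.154 (permutation within groups, 110 relations). Without KO con replicate 1 and WT con replicate 2, which lie farthest out for Slc24a2, the values were 0.37 for Atp2b1 and -0.44 for Slc24a4.

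Among the PMCA pumps, Atp2b1 was lower in KO stress than in WT stress. Atp2b1 encodes PMCA1, the isoform found in nearly all cells. Its log2 values (probe set 10366004) were 11.24, 11.22, 11.16, 11.46 and 11.15 in KO stress, against 11.97, 11.36, 11.44, 12.06 and 11.89 in WT stress. KO con arrays had 11.97, 11.20, 11.34, 11.25 and 11.47, and WT con arrays 11.70, 11.54, 11.32, 11.27 and 11.28. The stress groups overlapped only in that KO stress replicate 4 lay above WT stress replicates 2 and 3, and the con groups covered much the same range. The difference of KO stress and WT stress was -0.50 (SE 0.15), a fold of 0.707, with an unadjusted limma p of 0.00389, an exact permutation p of 0.0238 and an adjusted p of 0.530. It kept its direction and an unadjusted p under 0.05 in each of the 20 fits with 1 array left out and each of the 14 other settings. Over all probe sets 9.28% had an unadjusted p under 0.05 in this comparison, a share near that of 1 gene among the 9 other than Slc24a2. WT stress exceeded WT con by 0.32 (SE 0.15), with an unadjusted limma p of 0.0465 and an exact permutation p of 0.0952. That call was lost in 12 of 20 fits with 1 array left out, namely KO stress replicates 1, 2, 3 and 5, WT stress replicates 1, 4 and 5, KO con replicates 3 and 5 and WT con replicates 3, 4 and 5. Over all 20 such fits the difference lay between 0.24 and 0.42. It was lost as well in 11 of 15 other settings, among them quantile normalization, array weights and the paired fit of the WT groups. In KO mice stress and con differed by -0.20 (SE 0.15, exact permutation p = 0.198), and in con mice KO and WT by 0.02 (SE 0.15, exact permutation p = 0.929). The interaction was -0.52 (SE 0.21), with an unadjusted limma p under 0.05 that did not survive adjustment. It did not pass without WT stress replicate 4 (-0.44) or with quantile normalization (-0.45).

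Of the neuron marker scores, the pallial score rose and the GABAergic score fell with Atp2b1. The striatal and central amygdala score (r = 0.19) and the thalamic score (r = -0.16) did not pass, with adjusted permutation p of 0.798 and 0.865. The pallial excitatory neuron score, over 9 of 10 listed markers, ranged from -0.81 to 0.49 in KO stress, from -0.46 to 1.26 in WT stress, from -0.76 to 0.95 for KO con and from -0.44 to -0.01 for WT con. After subtracting group means it correlated with Atp2b1 at r = 0.78 (rho = 0.68, permutation p = 0.00344 and 0.00811, adjusted p = 0.0344 and 0.0811), and at 0.65 without KO con replicate 1 and WT stress replicate 4. The GABAergic score, over 6 of 6 markers, correlated at r = -0.83 (rho = -0.88, permutation p = 0.00045 and 0.00023, adjusted p = 0.00707 and 0.00422), and at -0.80 without KO con replicate 1 and WT stress replicate 5. The GABAergic score lay between 0.11 and 0.29 in KO stress and between -0.79 and 0.07 in WT stress, with no overlap. Its markers include Dlx1 and Dlx2, which the study lists for stress KO against WT on these arrays. The separation is therefore no independent evidence. With the pallial score as a covariate the WT stress difference of Atp2b1 was 0.11 and did not pass, and that of KO stress and WT stress remained at -0.33. For Slc24a2 the pallial score gave r = 0.44 (permutation p = 0.0606, adjusted p = 0.222) and 0.19 without KO con replicate 1 and WT stress replicate 4, and the differences with the covariate were 0.47 for WT stress against con and -0.53 for KO stress against WT stress. The GABAergic score gave r = -0.60 for Slc24a2 (rho = -0.52, permutation p = 0.0189 and 0.0449, adjusted p = 0.114 and 0.220). Without KO con replicate 1 and WT stress replicate 5 that value was -0.44.

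Atp2b2 encodes PMCA2, the fast pump of cerebellar Purkinje cells and inner ear hair cells, and it varied little. Its log2 values ran from 10.30 to 10.69 (median 10.47) in KO stress, 10.40 to 10.75 (10.68) in WT stress, 10.35 to 10.97 (10.53) for KO con and 10.27 to 10.84 (10.61) for WT con. The 4 differences lay between -0.15 and 0.01 with unadjusted limma p-values of 0.207 to 0.933. The widest 95% limits of these were -0.39 and 0.25, within the fold threshold.

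Atp2b3, the X-linked gene of PMCA3, known from neurons and, in rat, from choroid plexus, had its widest spread after stress. Its log2 values (probe set 10600180) were 9.58, 9.87, 9.41, 9.63 and 9.31 in KO stress and 9.46, 9.45, 9.45, 10.61 and 9.77 in WT stress. KO con arrays had 9.38, 9.51, 9.45, 9.38 and 9.36, and WT con arrays 9.43, 9.45, 9.34, 9.37 and 9.49. The SD was 0.22 in KO stress, 0.50 in WT stress and 0.06 in each con group, and the high WT stress values were those of replicates 4 and 5. WT stress exceeded WT con by 0.33 (SE 0.17), with a limma p of 0.0615 and an exact permutation p of 0.103, and without WT stress replicate 4 the difference was 0.12. That array also had the highest choroid plexus score of all, 2.82. Over 20 arrays Atp2b3 and the choroid plexus score (6 of 6 markers) correlated at r = 0.81 after subtracting group means (rho = 0.54, permutation p = 0.0171 and 0.046, adjusted p = 0.114 and 0.220). Without KO stress replicate 3 and WT stress replicate 4 the value was 0.59. With that score as a covariate, an alternative added after the values were seen, Atp2b3 differed by 0.30 between WT stress and con and by -0.37 between KO stress and WT stress, each with an unadjusted limma p under 0.05, where the difference without it was -0.19 for the second (exact permutation p = 0.563). None of these passed after adjustment over all probe sets.

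**Figure D2:**
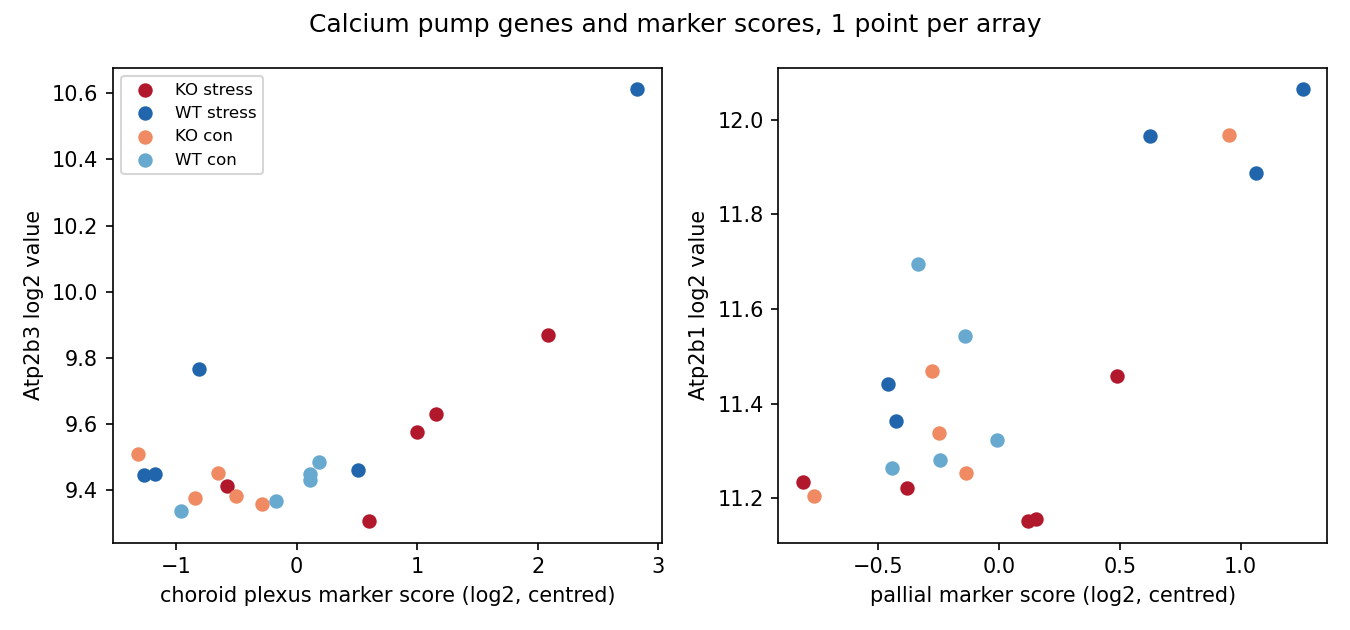
Atp2b3 log2 value against the choroid plexus score (left) and Atp2b1 log2 value against the pallial score (right), 1 point per array, coloured by group. WT stress replicate 4 is the point at the upper right of the left panel, with a score of 2.82 and a value of 10.61.

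The NCX exchangers Slc8a1 and Slc8a2 stood in opposite directions after stress in WT mice, and neither passed the test. Slc8a1 encodes NCX1, the exchanger of heart muscle that brain also expresses. Its probe set 10453231 had 9.79, 10.23, 9.83, 10.18 and 10.51 in KO stress and 8.24, 9.53, 9.76, 9.88 and 9.78 in WT stress. KO con arrays had 9.18, 9.94, 10.34, 10.54 and 9.39, and WT con arrays 8.30, 10.41, 10.62, 10.52 and 10.26. The lowest values belonged to replicate 1 of both WT groups, the arrays that stood apart on all probe sets, and 4 of 5 WT con arrays lay above all WT stress arrays. Probe set 10453233 had 9.80, 10.15, 9.80, 10.03 and 10.44 in KO stress, 9.43, 9.44, 9.79, 10.02 and 9.98 in WT stress, 9.53, 9.90, 10.20, 10.45 and 9.62 for KO con and 9.19, 10.20, 10.54, 10.66 and 10.40 for WT con. The probe sets ran together over the arrays (r = 0.91 after subtracting group means).

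WT stress was below WT con for Slc8a1 by -0.59 (SE 0.40, limma p = 0.165, exact permutation p = 0.317) at 10453231 and by -0.47 (SE 0.24, p = 0.0685, exact permutation p = 0.159) at 10453233. The first of these lay past the fold threshold without a p under 0.05. Without WT con replicate 1 the differences were -1.02 and -0.72, and without replicate 1 of both WT groups -0.72 and -0.64, each with an unadjusted limma p under 0.05. Deviations of same-numbered WT arrays correlated, although no source used here says what a shared number marks. In an alternative fit of the WT groups with the replicate number as a block, the paired fit, both probe sets of Slc8a1 passed an unadjusted p of 0.05 and Atp2b1 did not. KO stress and WT stress differed by 0.67 (SE 0.40) at 10453231, with a limma p of 0.113 and an exact permutation p of 0.0397, and by 0.31 (SE 0.24, p = 0.213, exact permutation p = 0.111) at 10453233. Stress and con in KO mice differed by 0.23 and 0.10 (exact permutation p = 0.452 and 0.603), and KO and WT in con mice by -0.15 and -0.26 (exact permutation p = 0.802 and 0.429). Without WT con replicate 1 the con difference at 10453233 was -0.51, with an unadjusted limma p under 0.05.

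Slc8a2, the gene of the brain exchanger NCX2, had 8.38, 8.24, 8.55, 8.68 and 8.51 in KO stress, 9.0, 8.38, 8.28, 9.50 and 9.34 in WT stress, 9.20, 8.31, 8.24, 8.40 and 8.57 for KO con and 8.91, 8.09, 8.51, 8.58 and 8.49 for WT con. Replicates 1, 4 and 5 of WT stress lay above every KO stress array, whereas replicates 2 and 3 did not. WT stress exceeded WT con by 0.38 (SE 0.23, exact permutation p = 0.206), and KO stress differed from WT stress by -0.43 (SE 0.23, exact permutation p = 0.143). Both had an unadjusted limma p under 0.05 once 1 of these low arrays was left out, with differences of 0.51 and -0.56 without WT stress replicate 2 and of 0.54 and -0.58 without replicate 3. Differences in KO mice and in con mice were -0.07 and 0.03 (exact permutation p = 0.802 and 0.889). Slc8a2 followed the pallial score at r = 0.82 (rho = 0.78, permutation p = 0.00122 and 0.00229, adjusted p = 0.0149 and 0.028), and at 0.71 without KO con replicate 1 and WT stress replicate 4. With that score as a covariate the WT stress difference was 0.04 and the difference of KO stress and WT stress -0.16. The GABAergic score correlated with Slc8a2 at r = -0.65 (rho = -0.66, permutation p = 0.019 and 0.0127, adjusted p = 0.114 and 0.117). Without KO con replicate 1 and WT stress replicate 5 that value was -0.49.

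Slc8a3, the gene of NCX3 in brain and skeletal muscle, differed little. Its log2 values ran from 7.56 to 7.90 (median 7.78) in KO stress, 7.23 to 7.91 (7.69) in WT stress, 7.61 to 8.0 (7.76) for KO con and 7.63 to 7.98 (7.78) for WT con. The 4 differences lay between -0.14 and 0.07, with limma p-values of 0.242 to 0.997.

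**Figure D3:**
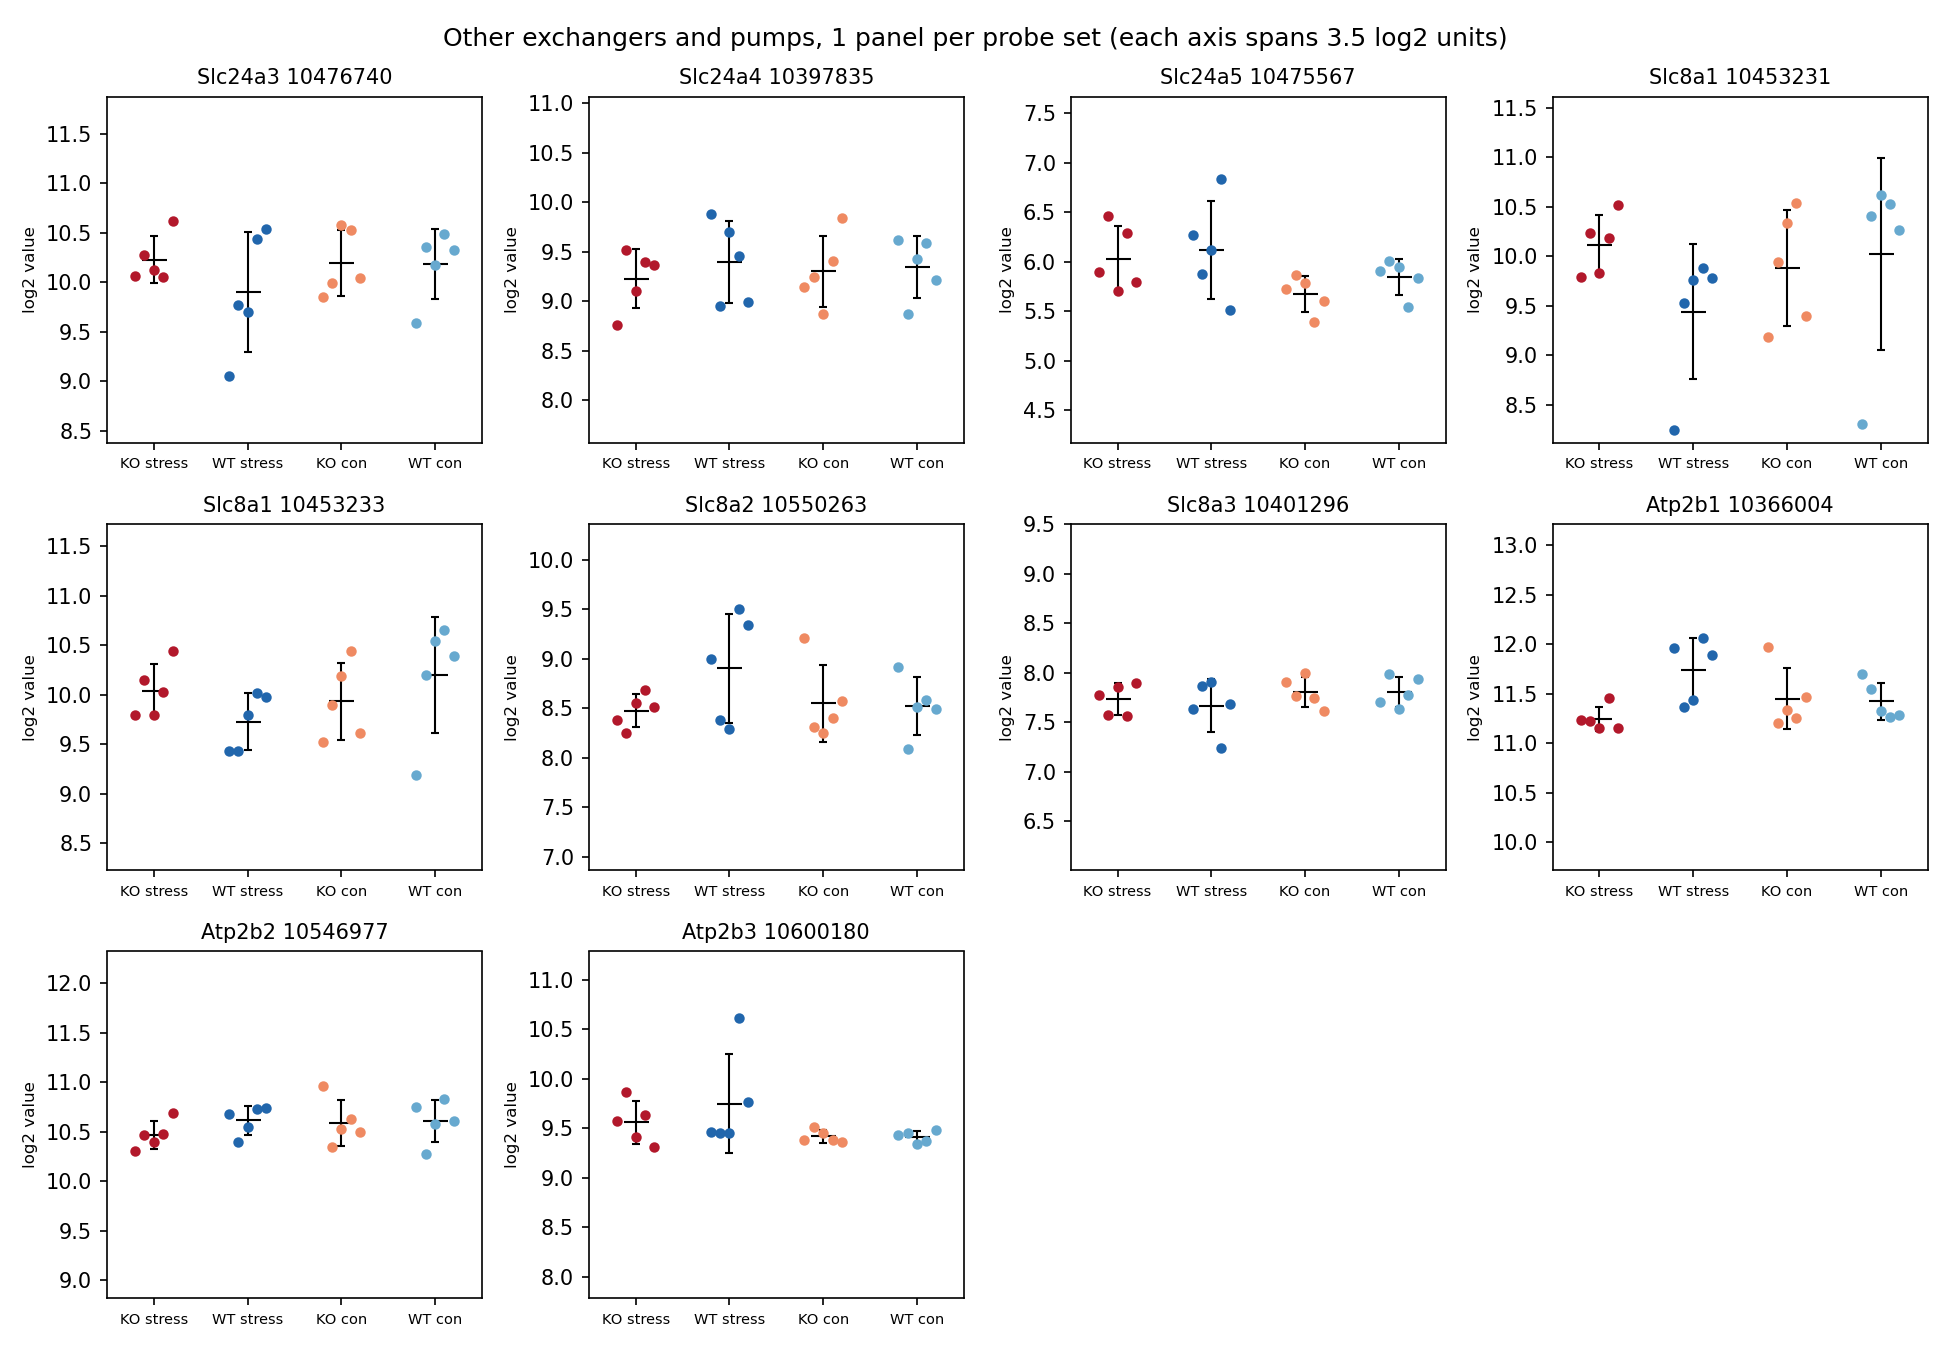
Normalized log2 values (y axis) of the 10 probe sets other than that of Slc24a2, 1 panel each, in the 4 groups (x axis), with 1 point per array and bars for the mean ± SD of 5 arrays. The low replicate 1 of both WT groups at Slc8a1 (8.24 and 8.30 at 10453231) and the high WT stress replicate 4 at Atp2b3 (10.61) stand out.

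None of the other NCKX exchangers passed the test in any comparison. Slc24a3, the gene of NCKX3, had 10.07, 10.27, 10.13, 10.05 and 10.62 in KO stress, 9.05, 9.78, 9.70, 10.44 and 10.54 in WT stress, 9.85, 9.99, 10.58, 10.53 and 10.04 for KO con and 9.59, 10.36, 10.17, 10.49 and 10.32 for WT con. WT stress spread most widely (SD 0.61), and its replicate 1 was the lowest array. Its difference of WT stress and con was -0.28 (SE 0.24, exact permutation p = 0.405) and that of KO stress and WT stress 0.33 (SE 0.24, exact permutation p = 0.302), both with the sign opposite to that of Slc24a2. Stress and con in KO mice differed by 0.03 (exact permutation p = 0.857), and KO and WT in con mice by 0.01 (exact permutation p = 0.968).

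Slc24a4, the gene of NCKX4, known from olfactory neurons and tooth enamel as well as brain, ran from 8.76 to 9.52 (median 9.37) in KO stress, 8.96 to 9.89 (9.46) in WT stress, 8.87 to 9.84 (9.25) for KO con and 8.87 to 9.62 (9.43) for WT con. Its 4 differences lay between -0.17 and 0.05, with limma p-values of 0.432 to 0.844. Slc24a5, the gene of the exchanger NCKX5 of pigment cells, ran from 5.71 to 6.46 (median 5.90) in KO stress, 5.51 to 6.84 (6.11) in WT stress, 5.39 to 5.86 (5.73) for KO con and 5.55 to 6.01 (5.91) for WT con, where the lowest value of the whole table was 4.09. Array medians over all probe sets were 6.59 to 6.82, so the mean of Slc24a5 in every group lay in the lower part of the signals. Stress exceeded con by 0.36 in KO mice (SE 0.19, exact permutation p = 0.0714) and by 0.27 in WT mice (SE 0.19, exact permutation p = 0.310). An unadjusted limma p under 0.05 was reached for the KO difference without KO stress replicate 3 (0.44) or WT stress replicate 4 and for the WT difference without WT stress replicate 5 (0.43). With limma on the compared groups alone the KO difference had such a p as well. Slc24a5 correlated with the choroid plexus score at r = 0.71 after subtracting group means (rho = 0.58, permutation p = 0.0157 and 0.0289, adjusted p = 0.114 and 0.176), and at 0.47 without KO stress replicate 3 and WT stress replicate 4. That score averaged 0.85 in KO stress and -0.72 in KO con, and with it as a covariate, added after the values were seen, the KO difference of Slc24a5 was 0.01. Its markers include Ttr, Kl, Kcnj13 and Clic6, which the study lists for KO stress against con on these arrays. The difference of the score between these groups is therefore no independent evidence. The part of the score in the Slc24a5 difference was not tested beyond this fit. On single arrays of the 4 groups the score of 5 pigment cell markers lay between -0.16 and 0.24.

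**Figure D4:**
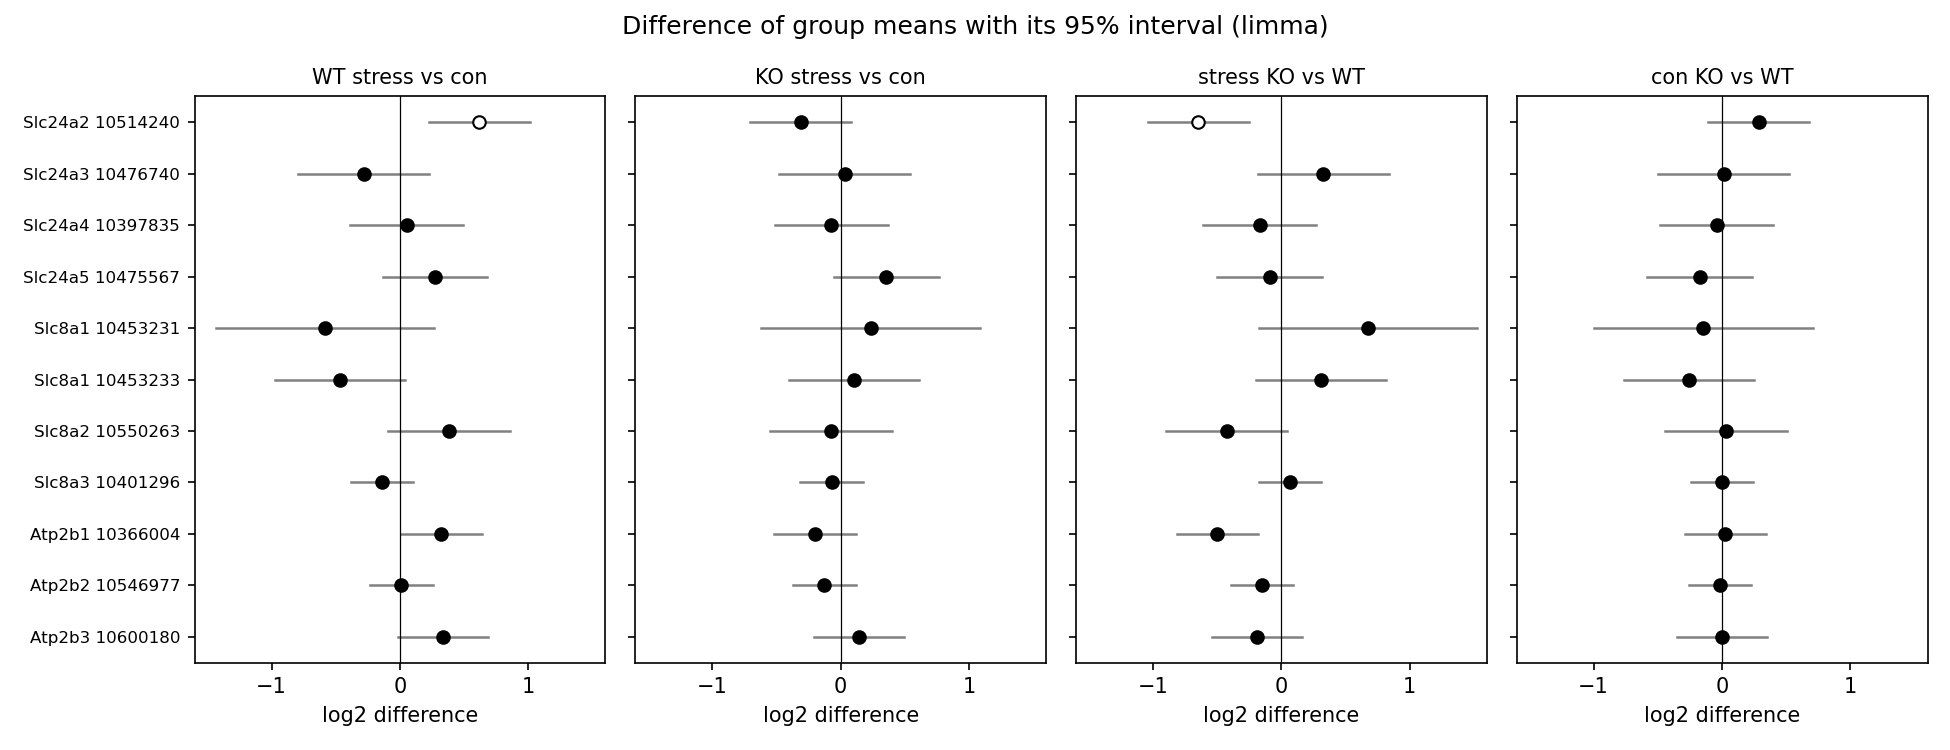
Difference of group means in log2 units (x axis) with its 95% interval for each of the 11 probe sets (y axis), 1 panel per comparison, from limma with all 20 arrays. Open circles mark Slc24a2 in the comparisons that chose it, and of the other probe sets only that of Atp2b1 had intervals clear of 0, in WT stress against con (0.01 to 0.64) and in stress KO against WT (-0.82 to -0.18).

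At an unadjusted limma p under 0.05, WT stress against con gave 2 of 10 genes, Slc24a2 and Atp2b1, where the share over all probe sets was 3.54%. KO stress against con gave 0 of 10 (1.13% of all probe sets), stress KO against WT gave the same 2 genes (9.28%), con KO against WT gave 0 (3.57%) and the interaction gave those 2 genes again (2.52%). Slc24a2 was chosen on those values, so that the count that bears on the family is 1 of 9, Atp2b1, in each. In the paired fit of the WT groups that member was Slc8a1, and not Atp2b1, for WT stress against con. These 3 comparisons share the WT stress arrays, and in stress KO against WT 1 of 9 is near the 9.28% of all probe sets. With a fold over 1.5 in addition, the study's criterion, 0 of the 9 other genes were counted in WT stress against con (0.240% of all probe sets) and stress KO against WT (0.768%). In KO stress against con (0.139%) and con KO against WT (0.0487%) 0 members were counted. Slc24a2 passed in the first 2 comparisons, for which the study lists it at this criterion, so its passing is only a description. No member had an adjusted p under 0.05 in any comparison, and over all probe sets 0.00348% did in stress KO against WT and 0% elsewhere. Arrays of the 2 groups overlapped for each of the 9 other genes in stress KO against WT (not overlapping for 1.02% of all probe sets). Those of Slc24a2 did not overlap there, which is a description, since that comparison chose it. Arrays did not overlap for 0 members in WT stress against con (0.257%), KO stress against con (0.289%) and con KO against WT (0.855%).

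With Slc8a1 as the mean of its probe sets, the median difference of the 10 genes was 0.16 in WT stress against con, with 7 of 10 above 0, against 0.03 and 62.8% above 0 over all probe sets. In KO stress against con it was -0.07 with 4 above 0, against 0.00 and 48.6%. In stress KO against WT it was -0.16 with 3 above 0, against -0.03 and 41.3%, and in con KO against WT it was 0.00 with 5 above 0, against 0.00 and 50.1%. The medians include Slc24a2, which was chosen on WT stress against con and stress KO against WT. Without it the median of the other 9 genes was 0.05 with 6 above 0 in WT stress against con, -0.07 with 4 above 0 in KO stress against con and -0.15 with 3 above 0 in stress KO against WT.

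Some members varied together from mouse to mouse. In all 110 relations were tested, 55 between member probe sets and 55 between members and 5 marker scores, each by permutation within groups. Of these 12 had an adjusted p under 0.05 for r, of which 5 were member pairs and 7 were scores. The pairs are of probe sets, and they include the Slc8a1 probe sets with each other (r = 0.91) and Slc24a3 with each of these. How often other probe sets of the array relate this closely was not tested. Slc24a3 and Slc8a1 varied together (r = 0.82 at 10453231 and 0.78 at 10453233, rho = 0.80 at each, permutation p = 0.00013 and 8e-05, adjusted p = 0.00238 and 0.00220). Without WT stress replicates 1 and 5 the values were 0.80 and 0.85. Slc8a2 ran with Atp2b2 (r = 0.74, rho = 0.76, permutation p = 0.00064, adjusted p = 0.00880) and with Atp2b1 (r = 0.81, rho = 0.77, permutation p = 0.00322, adjusted p = 0.0344), and without WT stress replicate 3 and KO con replicate 1 at 0.71 in each case. Atp2b2 followed the pallial score at r = 0.61 (rho = 0.54, adjusted p = 0.0431 and 0.149), and at 0.46 without KO con replicate 1 and WT stress replicate 4.

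Of the 55 relations of members and scores, the closest was that of Slc24a3 and markers of striatal and central amygdala neurons. That score, over 6 of 8 listed markers, ranged from -0.78 to 0.48 in KO stress, from -1.01 to 1.02 in WT stress, from -0.99 to 1.01 for KO con and from -1.01 to 1.21 for WT con. Slc24a3 was low where the score was high, at r = -0.91 and rho = -0.94 (permutation p = 5e-05 and 2e-05, adjusted p = 0.00183 and 0.00110), and r was -0.88 without WT stress replicate 5 and WT con replicate 1. Slc8a1 showed the same direction, at r = -0.78 for 10453231 (adjusted p = 0.00220) and -0.87 for 10453233 (adjusted p = 0.00183), and at -0.72 and -0.85 without those arrays. With this score as a covariate, added after the values were seen, the difference of KO stress and WT stress was 0.29 for Slc24a3 and, for Slc8a1, 0.61 at 10453231 and 0.27 at 10453233, each with an unadjusted limma p under 0.05 and none after adjustment. The WT stress difference of Slc24a3 with the covariate was -0.07. The striatal score itself had means of 0.05 in KO stress, 0.15 in WT stress, 0.16 for KO con and -0.36 for WT con, and its part in the differences between groups was not tested beyond this fit.

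**Figure D5:**
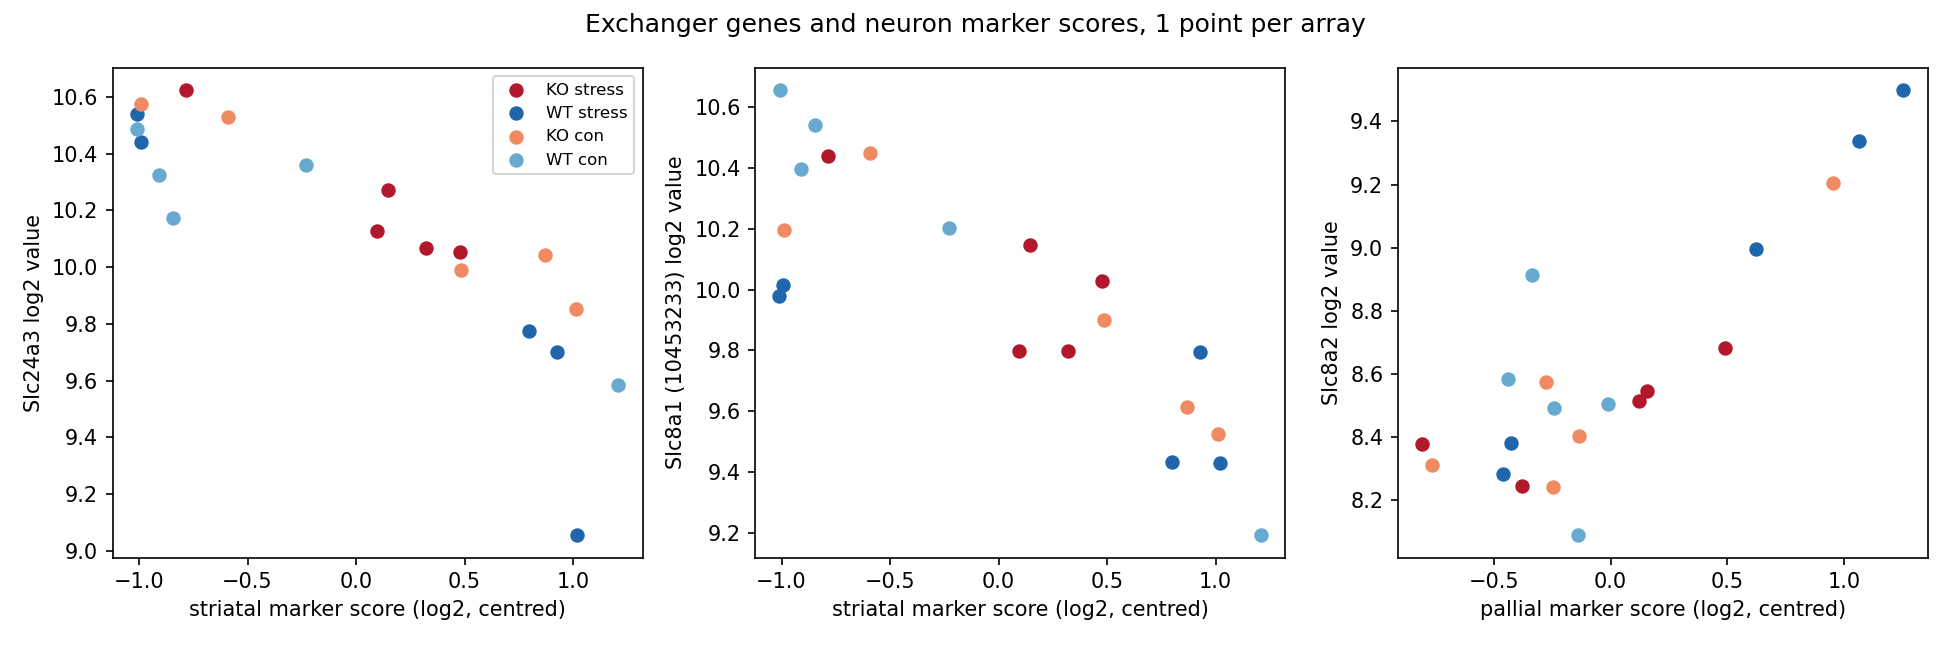
Slc24a3 (left) and Slc8a1 at 10453233 (middle) log2 values against the striatal and central amygdala score, and Slc8a2 (right) against the pallial score, 1 point per array, coloured by group. Arrays of every group lie along the slope, from Slc24a3 at 10.62 in KO stress replicate 5 to 9.05 in WT stress replicate 1.

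Genes that work beside the exporters were taken from 6 lists, of which 23 of 30 genes have a probe set with 1 symbol. The lists hold the other family members (Slc24a1, Slc8b1 and Atp2b4), pump subunits and calmodulin, the calcium pumps of intracellular stores, mitochondrial calcium transport, cytosolic buffers and the sodium pump that maintains the gradient. The remaining listed genes were not analysed here. In WT stress against con 0 of 23 had an unadjusted limma p under 0.05 (3.54% of all probe sets), with a median difference of 0.00. In con KO against WT 0 of 23 did as well (3.57%), with a median of 0.08. In stress KO against WT 2 of 23 were higher and 0 lower, a share near the 9.28% of all probe sets. In KO stress against con 0 were higher and 1 lower (1.13%), and 0 passed after adjustment in any of the 4.

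Slc8b1, the mitochondrial sodium and calcium exchanger NCLX, had 7.36, 7.90, 7.75, 7.63 and 7.52 in KO stress, against 7.33, 7.39, 7.31, 7.44 and 7.54 in WT stress. The groups overlapped, and the difference was 0.23 (SE 0.10, unadjusted limma p = 0.0300, exact permutation p = 0.0556). The call was lost when replicates 2 or 3 of KO stress or replicates 1 or 3 of WT stress were left out, with differences of 0.16 to 0.21. Smdt1, the EMRE subunit of the mitochondrial calcium uniporter, had 10.96, 10.94, 10.85, 10.76 and 10.89 in KO stress, against 10.26, 10.93, 10.63, 10.79 and 10.49 in WT stress, a difference of 0.26 (SE 0.10, unadjusted limma p = 0.0204, exact permutation p = 0.0635). The call was lost without WT stress replicate 1 (0.17) or replicate 5 (0.23). All 5 measured genes of mitochondrial calcium transport had differences above 0 in stress KO against WT (median 0.23, against -0.03 and 41.3% above 0 over all probe sets) and in con KO against WT (median 0.18, against 0.00 and 50.1%). Of these 5 only Smdt1 had an unadjusted limma p under 0.05 in the first and 0 in the second, and the 3 measured genes of the sodium pump list lay above 0 in both as well (medians 0.16 and 0.08).

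Pvalb, the buffer parvalbumin of fast-spiking interneurons, had 6.48, 6.60, 7.05, 6.31 and 6.55 in KO stress and 6.52, 7.97, 7.17, 7.34 and 7.26 in WT stress, against 8.12, 7.13, 8.67, 6.67 and 6.31 in KO con and 7.28, 7.31, 6.52, 6.22 and 6.98 in WT con. KO con replicates 1 and 3 were the highest arrays. The difference of stress and con in KO mice was -0.78 (SE 0.37), with an unadjusted limma p of 0.0496 and an exact permutation p of 0.151, and without KO con replicate 3 it was -0.46. The call was lost in 14 of the 20 fits with 1 array left out. KO stress and WT stress differed by -0.66 (SE 0.37), with a limma p of 0.0946 and an exact permutation p of 0.0317, and the groups overlapped. The study lists Pvalb for that comparison on these arrays, so the value is no independent evidence.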

How the data were processed

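Amygdala RNA of 20 mice was measured on Affymetrix whole-transcript arrays, 5 separate mice in each of 4 groups. The authors summarized and normalized the probe signals with ExonRMA and deposited them as log2 values in 1 table, which was used without further scaling. Probe positions were not used here. Array data hold no read depth, and the number of arrays limits the precision. Symbols came from the platform annotation, and promoter windows from RefSeq.

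Groups were compared with limma (version 3.58.1 in R 4.3.3) on 4 group means, with 16 residual and 2.1 prior degrees of freedom, 28767 probe sets and Benjamini-Hochberg adjustment over all of them. The methods of the study used unpaired t-tests, run here as an alternative. Exact two-sided permutation tests of 5 against 5 arrays cannot go below 0.00794. Correlations were taken after subtracting group means, with 100000 two-sided permutations within groups, and were chosen after the values were seen, as were the thalamic, choroid plexus and striatal scores as covariates. Where Slc8a1 is given as 1 value in the alternatives, it is the mean difference of its probe sets with the smaller of their p-values. The limma script was tested on simulated data. Within a group, arrays carry the numbers 1 to 5. Deviations of same-numbered arrays correlated at 0.162 to 0.420 in the 5 WT pairs, each over 0.1, the rule for a paired fit. Other pairs of groups did not meet this rule. For WT stress replicates 3 and 5, another WT con array correlated more closely. No source used here says what a shared number marks. The main fit treated all arrays as separate mice, and the paired fit of the WT groups was an alternative.

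Members and lists were chosen with earlier results of these data known. Genes named were all members, the 5 probe sets most and the 3 least like Slc24a2, and pathway genes with an unadjusted p under 0.05. Figures were drawn with matplotlib 3.10.9.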

Additional observations from a re-analysis of the deposited data

Results flagged for a closer look

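In 4 of 44 groups of 5 arrays (9.09%, where chance gives about 5%) the outermost array of a member lay far from the others of its group. At Slc8a1 (10453231) WT stress replicate 1 had 8.24, with the nearest array at 9.53, and WT con replicate 1 had 8.30, with the nearest at 10.26. Both belong to the arrays that correlated least with the rest. At Atp2b1 KO stress replicate 4 had 11.46, with the nearest at 11.24. At Atp2b3 WT stress replicate 4 had 10.61, with the nearest at 9.77, and this array also had the highest choroid plexus score, 2.82.

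Responses to stress differed between the genotypes at an unadjusted limma p under 0.05 for Atp2b1, with an interaction of -0.52 (SE 0.21), and for Pvalb, with an interaction of -1.17 (SE 0.53). Neither passed after adjustment over all probe sets. The study lists Pvalb for stress KO against WT on these arrays, a comparison that the interaction contains. The interaction of Pvalb is therefore no independent evidence. The value of Pvalb was -0.85 without KO con replicate 3, and it no longer passed in 11 of the 20 fits with 1 array left out.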

How the results depend on the processing

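No member had an adjusted p under 0.05 in any comparison or setting, and the lowest, 0.261, came from stress KO against WT without WT stress replicate 4. Counts of members here include Slc24a2, which was chosen on these arrays. The number of members with an unadjusted p under 0.05 was 2 in WT stress against con and 1 with the pallial score, the thalamic score, the methods' t-test or limma on the compared groups alone. It lay between 1 and 4 with 1 array left out and between 1 and 3 in the 15 other settings. Slc8a1 also passed with the replicate block in all groups, Atp2b3 with the choroid plexus score, and both without replicate 1 of both WT groups. In the paired fit of the WT groups, with the replicate block, the count was 2, but Slc8a1 (-0.53, mean of its probe sets) then stood in the place of Atp2b1 (0.32). The same exchange, at a count of 2, came with quantile normalization, centred medians, array weights or the oligodendrocyte score, and Atp2b3 stood in the place of Atp2b1 with the striatal score. In KO stress against con the count was 0, and 1 with the choroid plexus score or limma on the compared groups alone, and 0 to 1 with 1 array left out. In stress KO against WT it was 2, and 4 with the replicate block in all groups, the choroid plexus score or the striatal score. In con KO against WT it was 0, and 1 without replicate 1 of both WT groups, and 0 to 1 with 1 array left out. For the interaction it was 2, and 1 with quantile normalization, and 1 to 3 with 1 array left out. The Slc24a2 difference lay between -0.42 and -0.17 in KO stress against con and between 0.14 and 0.43 in con KO against WT with 1 array left out. In the comparisons that chose the gene it lay between 0.52 and 0.76 (WT stress against con) and between -0.75 and -0.58 (stress KO against WT). In each of these it fell short of the fold threshold in some of the fits. The methods' t-test and fits of 2 groups give no interaction. The causes of these changes were not tested.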
